A study of Mus musculus with 4 samples.

Results

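The genes examined here make up the glutathione and antioxidant defence of mouse Ly6C-high monocytes, read on arrays after a day of culture with retinoic acid or with its solvent. The rule that picks them uses names in the platform annotation only, but it was drawn up with earlier results of these data known. A probe set was taken where it carried exactly 1 gene symbol and that symbol belonged to a glutathione transferase (Gsta, Gstm, Gstk, Gstt, Gsto, Gstp, Gstz or Mgst), a glutathione peroxidase (Gpx), a peroxiredoxin (Prdx) or a superoxide dismutase (Sod), or was Gsr, Gss, Gclc, Gclm, Nqo1, Txn1, Txnrd1, Txnrd2, Srxn1, Cat, Nfe2l2 or Keap1. This gave 49 probe sets of 48 genes, out of 41345 probe sets on the array, of which 23521 carried 1 symbol and covered 22180 genes. Keap1 had 2 probe sets and every other gene 1. Of 63 genes whose RefSeq symbol matches the rule, 15 had no probe set of their own by name, among them Prdx1, Prdx5 and Prdx6, and were not analysed here.

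Bone marrow of 3 mice was pooled, and monocytes were enriched and then sorted as Ly6C-high cells. Both groups grew in medium with the cytokines GM-CSF and IL-4 (20 ng/ml of each), which steer monocytes toward dendritic cells. The retinoic acid (RA) group received 100 nM all-trans retinoic acid from the start and the control group DMSO, and RNA was taken after 24 h, with 2 arrays in each group. The labels give neither strain, age nor genotype, and do not say whether the replicates were separate cultures. P-values therefore measure only the spread between these arrays, which may be technical. The test, limma, draws the variance of each probe set toward a value shared by all probe sets tested. A p-value thus does not rest on that probe set's own spread alone.

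Median intensities of the 4 arrays lay between 80.0 and 81.8. Across 39720 probe sets, log2 intensities correlated at 0.993 between the RA arrays, 0.994 between the DMSO arrays and 0.984 to 0.988 across groups. All 7 retinoic acid target genes examined were higher with RA at a limma adjusted p under 0.05, where 0.904% of all probe sets tested were. Their list was drawn up with earlier results of these data known, so it is no independent check. The dim level is the 95th percentile of 1400 olfactory and vomeronasal receptor probe sets, 6.35 on the log2 scale. For Aldh1a2, Asb2, Tgm2, Dhrs3 and Cyp26b1, above the dim level in both groups, the difference was 0.99 to 3.91 on the log2 scale. Cyp26a1 and Rarb had DMSO means under that level, so their differences are against background. The monocyte genes Ly6c2 and Csf1r were bright in both groups. Their mean log2 intensities were 11.72 and 11.86 with RA and 11.91 and 11.87 with DMSO. Ly6c1 lay under the dim level in both groups. Itgam and Fcgr1 differed by 0.66 and 0.60 and Ccr2 by -0.34, without passing after adjustment. Of the 10 monocyte probe sets, 4 were higher and 2 lower at an unadjusted p under 0.05 (limma). Over all probe sets tested, 6.06% were higher and 7.37% lower by that measure. Of the markers of other bone marrow cells, 8 of 9 for B cells, 7 of 10 for T and NK cells and 5 of 7 for erythroid cells lay at or under the dim level. Of 10 markers of basophils, mast cells and eosinophils, 6 lay above it, and of 15 neutrophil and precursor markers, 14 did. Markers that passed the test are named after the antioxidant genes.

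Glutathione is a small sulphur-bearing peptide that cells use to reduce peroxides and to tag reactive compounds. The glutamate cysteine ligase made of Gclc and Gclm and the synthetase Gss build it, glutathione peroxidases and transferases spend it, and glutathione reductase, Gsr, restores the oxidised form with NADPH. Thioredoxin and the peroxiredoxins form a parallel line of defence, superoxide dismutases and catalase act on superoxide and hydrogen peroxide directly, and the transcription factor NRF2 (Nfe2l2), held in check by Keap1, raises many of these genes under oxidative stress. Monocytes and other phagocytes make oxidants on purpose and carry this machinery to limit damage to themselves.

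Of the 49 probe sets, 4 were higher with RA at a limma adjusted p under 0.05 and 0 were lower, while 45 did not pass. The 4 were Gsr, Gpx3, Mgst1 and Gstm4, so a recycling enzyme, a peroxidase and 2 transferases. Over all probe sets tested, 0.904% were called higher and 1.19% lower. The 4 called make up 8.16% of the 49 probe sets. Of the 49, 75.5% lay above the dim level, against 49.8% of all probe sets tested. Among 13359 probe sets with 1 symbol above that level, 277 (2.07%) were called higher and 395 lower. By their mean over the 4 arrays, 37 of the 49 lay above the dim level, Gstt2 and Gstt3 only through their RA arrays. At an unadjusted p under 0.05, 11 were higher and 3 lower (limma), where 6.06% of all probe sets were higher and 7.37% lower. The median difference over the 49 was 0.05 on the log2 scale, against -0.006 over all probe sets tested and 0.018 over the 13359. Both RA arrays lay above both DMSO arrays for 22 of the 49 and below them for 9. Of all probe sets 20.7% and 23.3% did so, and of the 13359, 4052 and 3404. Arrays of bulk RNA cannot tell fewer cells of a type from less RNA per cell, and this holds for every value here.

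**Figure D1:**
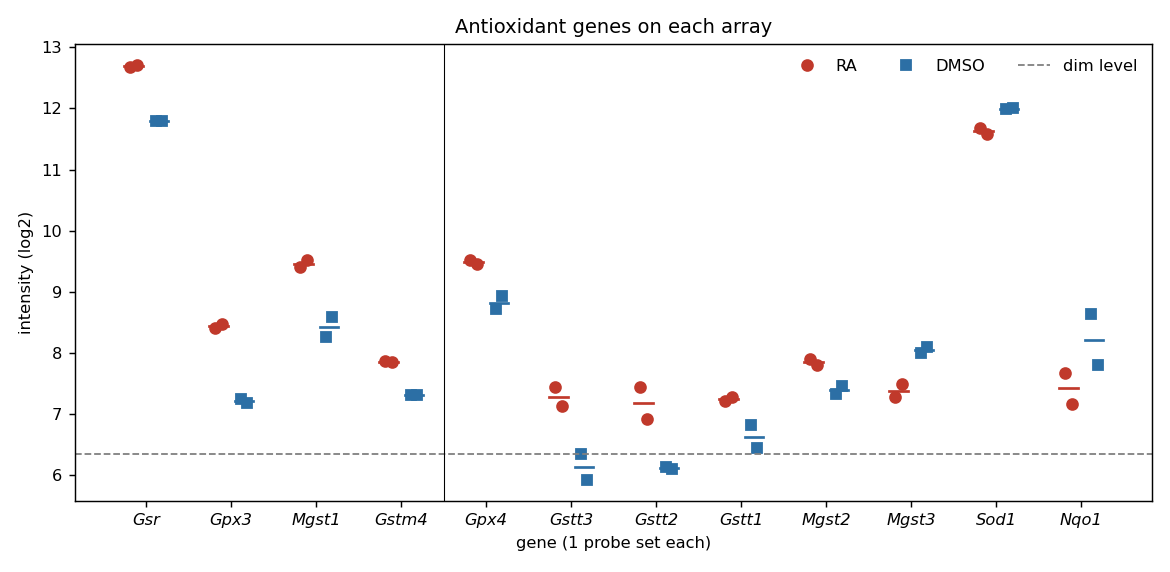
Log2 intensity on each array for 12 antioxidant genes, RA (circles) left of DMSO (squares), with a bar at each group mean (n = 2). The 4 genes left of the vertical line passed at an adjusted p under 0.05, the 8 to the right did not, and the dashed line is the dim level of 6.35.

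Gsr encodes glutathione reductase, the enzyme that returns oxidised glutathione to its working form. Its log2 intensity was 12.68 and 12.71 on the RA arrays, against 11.79 and 11.79 on the DMSO arrays. The groups lay far apart relative to their spread, with SDs of 0.03 with RA and 0.002 with DMSO. The difference was 0.90 ± 0.08 (log2, SE), a 1.87-fold increase (limma adjusted p = 0.0147).

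The other enzymes of glutathione synthesis did not pass. Gclm, the modifier subunit of the ligase, read 11.40 and 11.36 with RA and 11.51 and 11.45 with DMSO, a difference of -0.10 (95% interval -0.30 to 0.11). Gclc, the catalytic subunit, differed by 0.17 (-0.04 to 0.38) and the synthetase Gss by 0.24 (-0.03 to 0.52). The interval of Gsr, 0.70 to 1.10, lay above those of all 3, although a difference between genes was not tested.

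Gpx3 encodes the secreted, plasma form of glutathione peroxidase, a selenoprotein. It read 8.41 and 8.47 with RA, against 7.25 and 7.18 with DMSO. This was the largest difference among the 49, at 1.23 ± 0.08 (log2, SE) or 2.34-fold (limma adjusted p = 0.00857), and both groups lay above the dim level. Gpx1, the major cytosolic peroxidase of most cells, read 12.49 and 12.43 with RA and 12.38 and 12.45 with DMSO. Its groups overlapped, and the difference was 0.04 (95% interval -0.17 to 0.25).

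Gpx4, which reduces lipid peroxides within membranes and guards against ferroptosis, stood between these. It read 9.52 and 9.46 with RA, against 8.71 and 8.93 with DMSO, so that the groups did not overlap. The difference was 0.67 ± 0.10 (log2, SE) and did not pass (limma adjusted p = 0.0653). It passed in the fit restricted to probe sets above the dim level (0.0333), in that restricted to named ones, and with an intensity trend in limma's prior variance (0.0402). The endoplasmic reticulum peroxidase Gpx7 differed by -0.01, with overlapping groups. The other 5 probe sets of the family, those of Gpx2, Gpx5, Gpx6, Gpx8 and the pseudogene Gpx2-ps1, lay under the dim level in both groups.

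Mgst1 encodes a microsomal transferase that also reduces lipid peroxides. It read 9.40 and 9.51 with RA, against 8.25 and 8.59 with DMSO. All RA values were higher, the DMSO arrays being the more spread, with an SD of 0.24. The difference was 1.04 ± 0.14 (log2, SE), a 2.05-fold increase (limma adjusted p = 0.0424).

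Its relatives in the membrane family went separate ways, without passing in the fit to all tested probe sets. Mgst2, able to make leukotriene C4, read 7.90 and 7.81 with RA and 7.33 and 7.47 with DMSO. Its difference of 0.46 did not pass (limma adjusted p = 0.115), and passed in the fit restricted to named probe sets. Mgst3 was the other way round, at 7.28 and 7.49 with RA and 7.99 and 8.10 with DMSO. The difference of Mgst3, -0.66, did not pass (limma adjusted p = 0.0684). It passed in the fit restricted to probe sets above the dim level (0.0348) and in that restricted to named ones. In all 3 genes the groups did not overlap. Of all probe sets, 20.7% had both RA arrays above both DMSO arrays and 23.3% had them below.

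Gstm4, a mu class transferase, read 7.86 and 7.85 with RA, against 7.32 and 7.32 with DMSO. Replicates were nearly identical in both groups, and the difference of 0.54 ± 0.08 (log2, SE), or 1.45-fold, passed narrowly (limma adjusted p = 0.0489). It did not pass with an intensity trend in limma's prior variance (0.0513). The mu class genes are similar neighbours whose probes may share targets. Gstm1, the other of the 6 above the dim level, read 9.05 and 8.92 with RA and 8.82 and 9.13 with DMSO, and its groups overlapped. Gstm2, Gstm3, Gstm6 and Gstm7 lay under that level in both groups.

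Of the 18 transferases outside the membrane family, Gstm4 was called and 17 were not, where 0.904% of all probe sets were called higher and 1.19% lower. The theta class genes, neighbours on chromosome 10, nevertheless held the widest shifts among them. Gstt3 read 7.44 and 7.13 with RA, against 6.35 and 5.92 with DMSO, a difference of 1.15 ± 0.19 (log2, SE; limma adjusted p = 0.0737). Gstt2 read 7.45 and 6.91 with RA, against 6.13 and 6.11 with DMSO, a difference of 1.06 ± 0.19 (limma adjusted p = 0.0880). DMSO means of both were under the dim level, so these differences are against background.

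Gstt1 read 7.21 and 7.28 with RA, against 6.81 and 6.44 with DMSO (difference 0.62, limma adjusted p = 0.159). Gstt1, Gstt2 and Gstt3 passed in the fit restricted to named probe sets. None of these 3 overlapped between groups, where 20.7% of all probe sets had both RA arrays above both DMSO arrays. Their SEs of 0.14 to 0.19 were larger than that of Gstm4. The 3 are similar in sequence as well, so their probe sets may not be independent readings. Gstt4 lay under the dim level in both groups.

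The pi class, which dominates conjugation in many tissues, differed little. Gstp1 read 10.70 and 10.84 with RA and 10.63 and 10.67 with DMSO, a difference of 0.12 (95% interval -0.11 to 0.35). Gstp2 differed by -0.35 (-0.67 to -0.03; limma adjusted p = 0.325) and Gstp3 by -0.06. Probe sets of these near copies may respond to one another's transcripts.

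Gsto1, an omega class enzyme that reduces mixed disulphides, read 11.23 and 11.22 with RA and 10.89 and 10.92 with DMSO. Its tight replicates left a difference of 0.33 (95% interval 0.13 to 0.52) that did not pass (limma adjusted p = 0.158). The mitochondrial and peroxisomal transferase Gstk1 had the widest gap between RA replicates among the transferases outside the membrane family. It ran from 6.86 to 7.50 with RA and 7.18 to 7.50 with DMSO. Gsto2 lay on the dim level, and Gsta3 and Gsta4 under it.

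**Figure D2:**
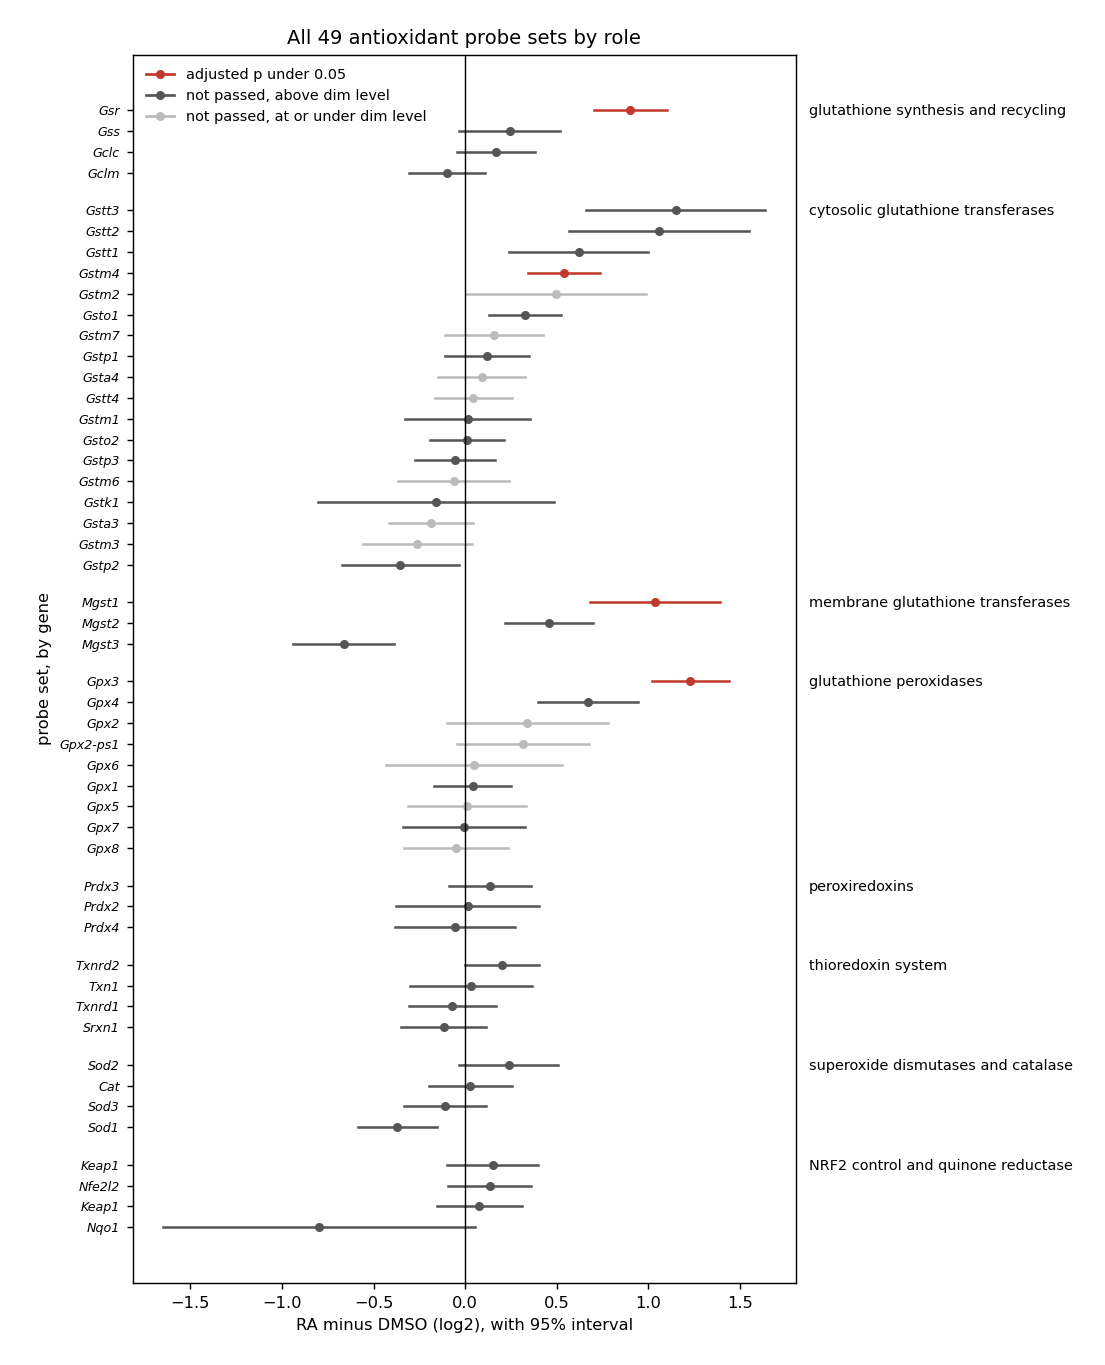
Difference between RA and DMSO (mean log2 intensity, RA minus DMSO) of each of the 49 probe sets with limma's 95% interval, grouped by role. The group labelled cytosolic glutathione transferases also holds Gstk1, which is mitochondrial and peroxisomal. Red marks the 4 called at an adjusted p under 0.05 (Gsr, Gstm4, Mgst1 and Gpx3), dark grey those above the dim level that did not pass, and light grey the 12 at or under it.

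Peroxiredoxins, superoxide dismutases, catalase, the thioredoxin system and the NRF2 control genes gave 0 calls in their 3, 4, 4 and 4 probe sets, superoxide dismutases and catalase counted together (limma). Over all probe sets tested, 0.904% were called higher and 1.19% lower, so 0 calls in so few probe sets does not set these families apart. At an unadjusted p under 0.05 they held only Sod1, whose difference was negative, where 6.06% of all probe sets were higher and 7.37% lower. Most of these genes were bright. Cat, which breaks down hydrogen peroxide in peroxisomes, read 12.14 and 12.20 with RA and 12.20 and 12.08 with DMSO. Its difference of 0.03 had a 95% interval of -0.20 to 0.26, which leaves out a 2-fold change in either direction.

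The 3 superoxide dismutases differ in where they act. Sod2, the mitochondrial enzyme, read 12.35 and 12.14 with RA and 11.98 and 12.04 with DMSO, a difference of 0.24 (95% interval -0.03 to 0.51). Sod1, the copper and zinc enzyme of the cytosol, read 11.67 and 11.57 with RA and 11.99 and 12.00 with DMSO. Groups of Sod1 did not overlap, and its difference of -0.37 ± 0.08 (log2, SE) did not pass (limma adjusted p = 0.142). It passed with an intensity trend in the prior (0.0396) and in the fit restricted to named probe sets. The extracellular Sod3 differed by -0.11, at 6.64 with RA and 6.75 with DMSO.

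Among peroxiredoxins, which destroy peroxides with a reactive cysteine, the mitochondrial Prdx3 read 11.60 and 11.47 with RA and 11.40 and 11.39 with DMSO. Its difference was 0.14 (95% interval -0.09 to 0.36). The cytosolic Prdx2 differed by 0.01 and the endoplasmic reticulum enzyme Prdx4 by -0.06, both with overlapping groups.

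Txnrd1, the cytosolic thioredoxin reductase, read 11.96 and 11.99 with RA and 12.13 and 11.97 with DMSO, a difference of -0.07 (95% interval -0.31 to 0.17). Its substrate Txn1 differed by 0.03 and sulfiredoxin Srxn1, which repairs overoxidised peroxiredoxins, by -0.12. The mitochondrial reductase Txnrd2 differed by 0.20 (limma adjusted p = 0.372).

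Nfe2l2, which encodes NRF2, read 11.35 and 11.34 with RA and 11.28 and 11.15 with DMSO, a difference of 0.13 (95% interval -0.09 to 0.36). Its repressor Keap1 differed by 0.15 and 0.08 in its 2 probe sets, and neither passed. Nqo1, the quinone reductase often used as a readout of NRF2, read 7.68 and 7.17 with RA and 8.64 and 7.80 with DMSO. All RA values of Nqo1 were lower, yet the spread was wide, and the difference of -0.80 ± 0.33 (log2, SE) did not pass (limma adjusted p = 0.405). The 95% interval of Nqo1 ran from -1.65 to 0.05.

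The 4 calls rest on 2 arrays in each group, the fewest that give each group a spread of its own. None of the 4 passed without any 1 of the arrays: limma adjusted p ran from 0.0775 to 0.0928 for Gpx3, 0.103 to 0.142 for Gsr, 0.102 to 0.211 for Mgst1 and 0.196 to 0.295 for Gstm4, while the differences kept their sign. In those fits 0.0302% of all probe sets were called higher and 0.0327% lower without RA replicate 1, 0.0755% and 0.0629% without RA replicate 2, 0.0604% and 0.0428% without DMSO replicate 1, and 0.0579% and 0.0453% without DMSO replicate 2. When 1625 unnamed probe sets with one constant value were kept in the fit, 0 of the 49 and 0.00% of all probe sets passed, with limma adjusted p of 0.0625 for Gsr and Gpx3, 0.0704 for Gstm4 and 0.159 for Mgst1, and 12 higher and 2 lower at an unadjusted p under 0.05 (7.08% and 8.06% of all). The count higher was 9 where 3.22% of all were (3.74% lower, 2 of the 49) in the fit to named probe sets, and 7 where 2.80% were (3.44% lower, 1 of the 49) above the dim level. The 7 include Gstt2 and Gstt3, which clear that filter only through their RA arrays and whose calls there carry no weight. With the prior trend 4 were higher (1.23% of all) and 1 lower (1.54%), after renewed quantile normalization 4 and 0 (0.901% and 1.15%), and with an offset 4 and 0 (1.06% and 1.34%). With the replicate number as a block it was 0 (0.184% of all higher and 0.222% lower), and with crossed numbers 2 (0.488% and 0.662%).

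**Figure D3:**
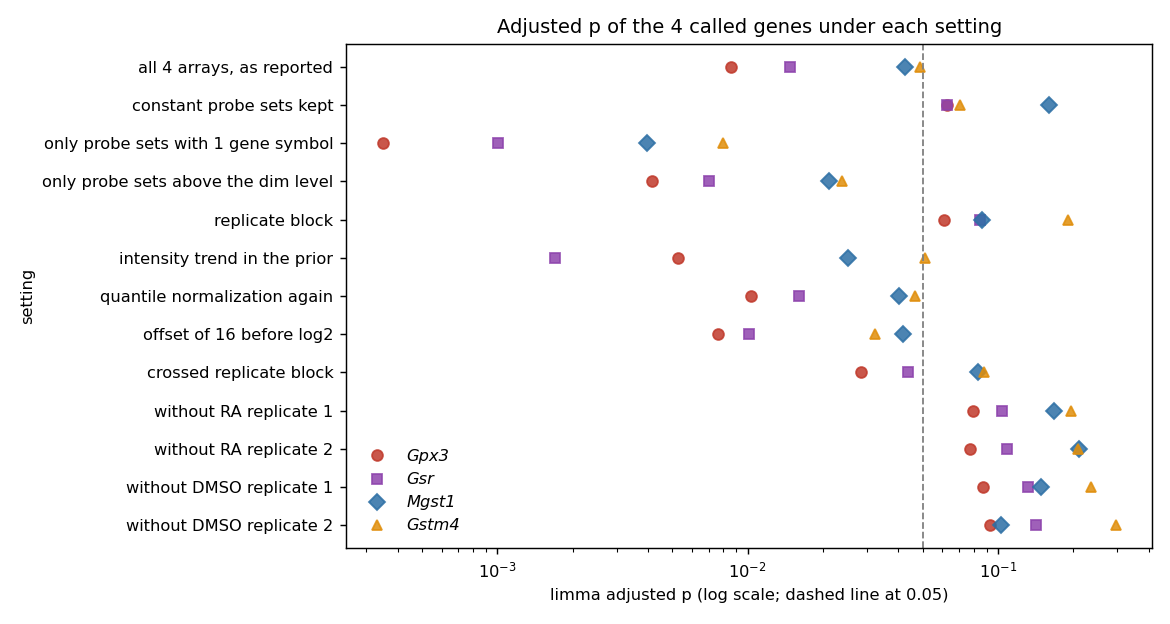
Limma adjusted p (horizontal, log scale) of Gpx3, Gsr, Mgst1 and Gstm4 under each way of fitting (vertical), with a dashed line at 0.05. All 4 lie left of the line with all 4 arrays as reported, and all 4 lie right of it when any 1 array is left out.

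Neutrophil and precursor markers were read beside Gsr and Mgst1, both of which granulocyte precursors express. Of 15 such probe sets, 2 were higher with RA (Retnlg and Mmp9), 1 was lower (Cxcr2) and 12 did not pass, where 0.904% of all probe sets were called higher and 1.19% lower. Retnlg, a resistin-like gene of neutrophils, differed by 1.06 and lay under the dim level in both groups, and the gelatinase Mmp9 differed by 1.01 (limma adjusted p = 0.0227 and 0.0494). Cxcr2, a chemokine receptor, differed by -1.15 (limma adjusted p = 0.0167). The granule genes Mpo and Elane were bright in both groups and differed by -0.14 and 0.21. Prtn3, a granule protease, read 11.83 and 11.66 with RA, against 10.93 and 11.11 with DMSO, and its difference of 0.73 did not pass (limma adjusted p = 0.0601). The collagenase Mmp8 differed by 0.49, with overlapping groups. Ly6g, which defines mature neutrophils, lay at 6.42 with RA and 6.33 with DMSO, next to the dim level. Lcn2, Ngp, Ltf, S100a8 and S100a9 of the same list were, in contrast, bright in both groups, and none of them passed (limma). The low reading of Ly6g thus does not stand for the neutrophil genes of the list. Summed over the list, linear intensity was 25480 and 24160 with RA, against 24495 and 24714 with DMSO, so that the groups overlapped. The part of these cells in the result was not tested. Among the other markers, Cd79b (0.65) and Siglecf (0.61) were higher and the monocyte factor Spi1 (-0.66) was lower (limma adjusted p = 0.0471, 0.0488 and 0.0438).

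Promoters of Gpx3, Mgst1 and Gstm4 are given with that of Gclm, which textbooks count among NRF2 targets and which did not pass. Each runs from 250 bases before to 50 bases after the gene's start, 5′ to 3′, from RefSeq on GRCm38.p6. The build behind the array's probe sets is not given in the sources used here. Capitals mark TGACNNNGC, the core of the antioxidant response element to which NRF2 binds, searched on both strands. Where a gene had 2 entries, one with the core was taken, or otherwise the first.
Gpx3, chr11:54902604-54902903, + strand: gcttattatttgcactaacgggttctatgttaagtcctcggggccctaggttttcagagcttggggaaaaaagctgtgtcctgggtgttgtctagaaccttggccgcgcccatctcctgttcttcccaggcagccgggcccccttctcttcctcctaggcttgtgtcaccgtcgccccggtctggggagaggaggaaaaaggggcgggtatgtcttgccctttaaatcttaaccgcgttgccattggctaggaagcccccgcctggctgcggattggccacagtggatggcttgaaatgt
Mgst1, chr6:138140277-138140576, + strand: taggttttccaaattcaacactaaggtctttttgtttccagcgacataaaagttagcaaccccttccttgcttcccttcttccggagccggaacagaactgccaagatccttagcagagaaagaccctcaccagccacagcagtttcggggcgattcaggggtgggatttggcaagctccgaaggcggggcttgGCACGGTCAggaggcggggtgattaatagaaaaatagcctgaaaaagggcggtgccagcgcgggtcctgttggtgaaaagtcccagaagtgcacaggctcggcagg
Gstm4, chr3:108044810-108045109, - strand: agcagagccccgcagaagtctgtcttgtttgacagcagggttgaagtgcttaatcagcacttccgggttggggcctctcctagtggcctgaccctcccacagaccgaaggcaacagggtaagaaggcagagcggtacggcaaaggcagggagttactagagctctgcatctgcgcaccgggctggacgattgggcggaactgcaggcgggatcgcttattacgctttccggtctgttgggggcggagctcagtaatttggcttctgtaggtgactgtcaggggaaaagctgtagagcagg
Gclm, chr3:122245307-122245606, + strand: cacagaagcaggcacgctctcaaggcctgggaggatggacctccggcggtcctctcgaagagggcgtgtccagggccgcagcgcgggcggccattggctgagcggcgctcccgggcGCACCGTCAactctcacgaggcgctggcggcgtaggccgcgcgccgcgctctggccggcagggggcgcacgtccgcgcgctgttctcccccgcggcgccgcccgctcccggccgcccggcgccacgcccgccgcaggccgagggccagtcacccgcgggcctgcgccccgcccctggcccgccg

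The core stood on the opposite strand in Mgst1, at positions -56 to -48 from the start, and in Gclm, at -134 to -126, and in neither of the other promoters shown. Mgst1 had 2 entries, and only the one shown, taken because it held the core, had a match. The 48 genes were matched by symbol, and 42 had at least 1 entry, 55 promoters in all. Of these 55, 8 held the core, or 14.5%, against 12.4% of all 32851 promoters of that length. Besides Mgst1 and Gclm, they belonged to Gsta3, Gstm7, Nfe2l2, Sod1, Srxn1 and Txnrd1, so 1 of the 8 genes was called. The half-site AGGTCA, to which retinoic acid receptors and other nuclear receptors bind, was in 16.4% of the 55 promoters and 16.3% of all, and in 0 of the 3 called genes with an entry. The overlap of both motifs in Srxn1 covers bases 32 to 37. A pair of such half-sites in the same orientation, 5 bases apart, was in none of the 55 and in 3 of all. A match is a description of letters and not a binding site, and a window without one says nothing of the factor.

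Pathways that feed these enzymes were read from the same fit, by lists of genes. Their counts stand against the same shares of all probe sets, 0.904% called higher and 1.19% lower, and 6.06% higher and 7.37% lower at an unadjusted p under 0.05. Cystine for glutathione enters through the exchanger of Slc7a11 and Slc3a2. The brighter of 2 Slc7a11 probe sets (17405082) read 9.58 and 9.32 with RA, against 10.51 and 10.55 with DMSO, and was 2.11-fold lower (-1.08 ± 0.11, log2, SE; limma adjusted p = 0.0237). The other lay under the dim level and differed by -0.27. Slc3a2, the shared heavy chain, differed by -0.10 (95% interval -0.33 to 0.14).

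Dpep2, a dipeptidase that cleaves leukotriene D4, read 8.20 and 8.03 with RA, against 10.52 and 10.04 with DMSO in 1 probe set (17512611), which was 4.48-fold lower (limma adjusted p = 0.0148). Its second probe set differed by -0.51 ± 0.28 (log2, SE) and did not pass (limma adjusted p = 0.521), with RA replicate 1, at 10.32, close to the DMSO arrays. These 2 were the calls among 25 probe sets for glutathione supply and breakdown, with 0 higher (limma; 1 higher and 7 lower at an unadjusted p under 0.05) and a median difference of -0.03.

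NADPH, which Gsr and the thioredoxin reductases consume, had 1 source higher and 1 lower among 20 probe sets (limma; 4 and 2 at an unadjusted p under 0.05), with a median of 0.08. Idh1, the cytosolic isocitrate dehydrogenase, read 11.32 and 11.22 with RA, against 10.32 and 10.47 with DMSO, and was 1.83-fold higher (limma adjusted p = 0.0262). Me2, a mitochondrial malic enzyme, read 10.49 and 10.45 with RA, against 11.02 and 11.05 with DMSO (-0.57, limma adjusted p = 0.0448). Pgd of the pentose phosphate pathway was bright and differed by 0.13 (95% interval -0.07 to 0.33).

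NRF2 partners and further NRF2 target genes gave 2 higher and 0 lower among 25 probe sets (limma; 5 and 3 at an unadjusted p under 0.05), with a median of 0.01. Osgin1, an oxidative stress response gene, read 9.06 and 9.12 with RA, against 8.34 and 8.24 with DMSO, and was 1.74-fold higher (limma adjusted p = 0.0244). Bach2, a repressor that competes at related sites, read 6.98 and 6.93 with RA, against 6.15 and 6.17 with DMSO, which is under the dim level (limma adjusted p = 0.0200). Of other targets in this list, heme oxygenase Hmox1 and the ferritin heavy chain Fth1 did not pass. Hmox1 differed by 0.29 (95% interval -0.07 to 0.64) and Fth1 by 0.002 (-0.22 to 0.23).

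Thioredoxin relatives, glutaredoxins and repair enzymes gave 1 higher and 0 lower among 24 probe sets (limma; 3 and 4 at an unadjusted p under 0.05). It was Sesn1, a sestrin, at 8.26 and 8.23 with RA and 7.47 and 7.59 with DMSO (0.72, limma adjusted p = 0.0324). The glutaredoxin Glrx, which removes glutathione from proteins, read 12.14 and 12.00 with RA and 11.33 and 11.55 with DMSO, and its difference of 0.63 did not pass (limma adjusted p = 0.0932). Txndc17, a bright thioredoxin-like gene, differed by -0.10.

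Selenoproteins among the antioxidant genes include Gpx1, Gpx3, Gpx4, Txnrd1 and Txnrd2, and of these only Gpx3 passed (limma). Gpx3 and Gpx4 differed by 1.23 and 0.67, and Gpx1, Txnrd1 and Txnrd2 by 0.04, -0.07 and 0.20. Other selenoproteins and the genes that make and insert selenocysteine gave 0 calls among 22 probe sets (limma; 4 higher and 1 lower at an unadjusted p under 0.05), with a median of 0.17 and Selenof, a bright member, at 0.10.

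Mgst1, Mgst2 and Mgst3 belong to a family of membrane proteins that also holds enzymes of eicosanoid synthesis. Among 13 probe sets of those enzymes and of transferase-like proteins, 0 were higher and 2 lower (limma; 1 and 3 at an unadjusted p under 0.05). Alox5ap, which presents arachidonate to 5-lipoxygenase, read 10.77 and 10.88 with RA, against 11.59 and 11.67 with DMSO in its brighter probe set 17444961 (-0.80, limma adjusted p = 0.0266). The dimmer one differed by -0.43 (limma adjusted p = 0.0880). Clic4, a chloride channel protein with a transferase fold, differed by -0.73 (limma adjusted p = 0.0282), and the translation factor Eef1g, with such a domain, by -0.06.

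Stress and immediate early genes, read as a sign of handling, gave 0 higher and 1 lower among 13 probe sets (limma; 0 and 3 at an unadjusted p under 0.05). The 1 was Junb, at -0.68 (limma adjusted p = 0.0398), while Atf3 differed by -0.12. The calls in these neighbouring lists were lost when any 1 array was left out or when the constant probe sets were kept, as for the 4 antioxidant genes.

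**Figure D4:**
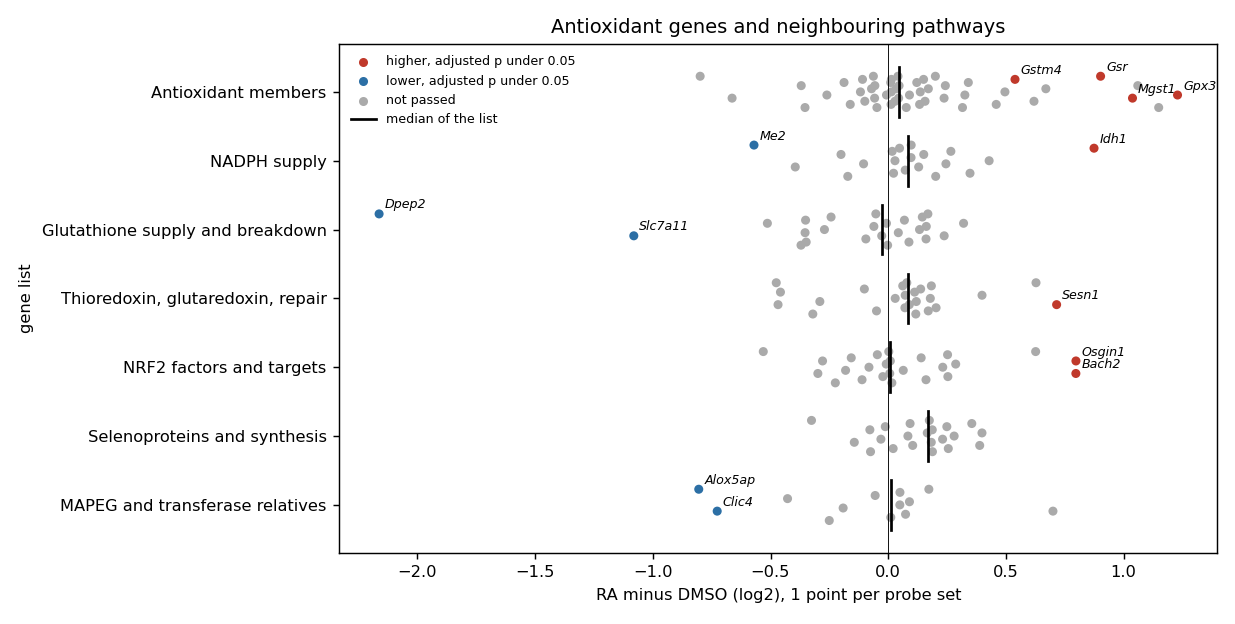
Difference between RA and DMSO (log2 intensity, RA minus DMSO; 1 point per probe set) for the 49 antioxidant probe sets and 6 neighbouring gene lists, with a black bar at each median. Red points are called higher and blue points lower at an adjusted p under 0.05, and the medians lie between -0.03 and 0.17.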

How the data were processed

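Biotin-labelled cDNA from 250 ng of total RNA was hybridised to 1-colour whole-transcript arrays, per the labels' protocols. Deposited values are linear intensities, 1 for each probe set on each array, which the authors made with Affymetrix Expression Console and RMA, per the submitters' processing notes; tool versions and a genome build are not given in the sources used here. RMA corrects background, equalises arrays and summarises probes, and it understates differences of dim genes. The number of arrays limits the precision, and with 2 arrays a side the smallest exact permutation p is 0.333.

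The intensities were transformed to log2 without further normalization. Probe sets identical on all 4 arrays (1625, none named) were left out and 39720 were tested; the prior degrees of freedom were 2.76, and 0.898 with them kept. Gene symbols came from the platform annotation: 23521 probe sets had 1 symbol, 1814 several and 16010 none, and 23328 had an identifier in the RefSeq table. RA was compared with DMSO by limma 3.58.1 (R 4.3.3; lmFit and eBayes, two-sided, no covariates), with Benjamini-Hochberg adjustment over all tested probe sets and a threshold of 0.05. Intervals are limma's 95% intervals. The members, the lists and the choice to leave out constant probe sets were made with earlier results of these data known. Array values are given for called members, for a bright member of each role and for others chosen after their values were seen. From the other lists, called genes and the brightest of most lists are named. Further genes of those lists were chosen after their values were seen. Alternatives were a fit with constant probe sets, with named or bright probe sets only, with a replicate block, a prior trend, renewed quantile normalization, an offset of 16 and each array left out.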

Additional observations from a re-analysis of the deposited data

How the results depend on the processing

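Of the 49 antioxidant probe sets, the number higher with RA was 4 as reported. It was 0 with the constant probe sets kept, 9 with only probe sets of 1 symbol, 7 with only those above the dim level (Gstt2 and Gstt3 among them, which clear that filter only through their RA arrays), and 0 to 0 when each array was left out in turn; a lone array was then assumed to vary like the other group. The number lower was 0 as reported (3 at an unadjusted p under 0.05), 2 with only probe sets of 1 symbol (Mgst3 and Sod1), 1 above the dim level (Mgst3), 1 with a prior trend (Sod1) and 0 to 0 without each array. Of the 4 called genes, 0 passed with constant probe sets kept and 0 to 0 without each array. The median difference ran from 0.07 to 0.10 without each array. Over all probe sets 0 were called with the constant ones kept (6260 at an unadjusted p under 0.05), 757 higher and 879 lower with 1 symbol, and 359 and 472 as reported. Limma's prior degrees of freedom were 2.76 as reported, 0.898 with the constant probe sets kept and 4.56 with only probe sets of 1 symbol. The cause of the changes in these counts was not tested.

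The labels number the replicates but do not say that a number marks a shared culture. With the replicate number as a block, 0 of the 49 were higher, 0 of the 4 passed and 161 probe sets were called in all. Deviations of same-numbered arrays correlated at -0.25 over probe sets, and the crossed block, added after the data were seen, called 2 of the 49 higher, the 2 being among the 4.

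Small differences changed sign. Renewed quantile normalization gave Gpx7 a difference of 0.018. Leaving out each array gave ranges of -0.033 to 0.091 for Cat, -0.066 to 0.070 for Fth1, -0.17 to 0.15 for Gpx7, -0.49 to 0.16 for Gstk1, -0.14 to 0.17 for Gstm1, -0.014 to 0.035 for Gsto2, -0.16 to 0.19 for Prdx2, -0.17 to 0.054 for Prdx4, -0.16 to 0.066 for Tfrc, -0.13 to 0.19 for Txn1 and -0.15 to 0.0076 for Txnrd1. The other 57 of 68 named results kept their sign in every fit run.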
